A study of Mus musculus with 6 samples.

Results

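The genes described here are 44 members of the Wnt pathway: 11 Wnt ligands, 15 receptors and co-receptors, 8 secreted modulators and 10 transducers. They were chosen by name, and every probe set that the platform annotation pairs with exactly 1 of these symbols was taken. That gave 43 of the 44 genes, among 18193 genes on the array with such a probe set, and 95 of 45037 non-control probe sets; Tcf7 had no such probe set and was not analysed here. RNA came from mouse embryos at E13.5 (counted in embryonic days), from tissue that the design text calls ventral forebrain and the sample labels ventral telencephalon. One group was Olig2 ko (-/-) and the other was Olig2 wt (+/+). Olig2 is a transcription factor of ventral neural progenitors. Each Affymetrix MOE430 2.0 array carried RNA pooled from 3 brains, so each value is an average over 3 embryos. Of 5 replicates per genotype that the design text states, numbers 2, 4 and 5 of the knockout and 1, 4 and 5 of the wild type were analysed here, 6 arrays in all. The sources used here do not give the strain, the construction of the Olig2 allele or the sex of the embryos. Whether the pools of a genotype came from separate litters is not given either, so p-values measure only the spread between these arrays, and their number limits the precision of every value.

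Wnt proteins are secreted, lipid-modified ligands that bind Frizzled receptors. Together with the co-receptors Lrp5 and Lrp6, a ligand-bound Frizzled recruits Dishevelled (the Dvl proteins) and stops a destruction complex of Axin, Apc and the kinase Gsk3b from marking beta-catenin (the Ctnnb1 product) for degradation. Beta-catenin then enters the nucleus and acts with Lef1 and the Tcf factors. Ror1, Ror2 and Ryk serve Wnt signals that do not run through beta-catenin, and in the embryonic forebrain the pathway is known for its part in dorsal patterning, thalamic development and the growth of brain vessels. In bulk tissue such as this, fewer cells of a type and less RNA per cell cannot be told apart.

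On the array level, medians lay between 3.14 and 3.19 on the log2 scale, and 43.9% to 44.2% of values were above 4. GCRMA, the authors' normalization, leaves a floor at 2.27, and 33.2% to 33.7% of values lay within 0.03 of it. Olig2 read 7.48, 7.53 and 7.76 on knockout 2, 4 and 5 and 8.20, 8.22 and 8.42 on wild type 1, 4 and 5. It was lower on every knockout array, without passing the adjusted threshold used below (difference -0.69, SE 0.11). The sources used here do not say whether the Olig2 probe set covers the altered sequence. Its neighbour Olig1 read 8.47, 8.55 and 8.02 in the knockout and 7.17, 6.48 and 6.30 in the wild type. Of the ventral telencephalon markers, 10 were above 4 on every array. Nkx2-1, which marks the medial ganglionic eminence, reached at most 3.36 at its 1 probe set. Lhx6 and Lhx8 of the same list read 8.22 to 9.10 and 9.91 to 10.25, so the Nkx2-1 reading alone does not show that this tissue was absent. The arrays were not alike within a genotype. Ttr, the choroid plexus transthyretin, read 9.99, 6.42 and 4.85 in the knockout and 8.36, 10.96 and 3.46 in the wild type, high on knockout 2 and wild type 4. The deviations of knockout 2 and wild type 4 from their group means correlated at r = 0.38 across the 22565 probe sets retained for testing (genes are not independent replicates). This was the largest value among the pairs of a knockout and a wild-type array, which ran down to -0.36 for knockout 2 and wild type 5. Deviations cancel within a genotype, so the pairs are not independent. Wild type 1 was the wild-type array farthest from the others for 49.2% of genes.

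The pathway was represented unevenly by role. A gene was called clearly detected when 1 of its probe sets was above 4 on all 6 arrays, weakly detected when a probe set exceeded only the array median, on 3 or more arrays, and floor-level otherwise. Clearly detected were 23 of the 43 measured genes, weakly detected were 4 and at the floor were 16. Among the 11 ligands only Wnt5a, Wnt7a and Wnt7b were detected. The 15 receptors had 9 clearly detected genes and 2 weakly detected ones, the 8 secreted modulators 3 and 2, and of 9 measured transducers 8 were clearly detected. With a stricter limit of 5 in place of 4, 19 genes were clearly detected, and Wnt5a, Fzd6, Fzd7 and Lef1 were not among them. A floor-level reading belongs to the probe set as much as to the gene, since probe sets of a detected gene can also sit at the floor: 1 of the 3 of Wnt7a and 2 of the 6 of Fzd3 did.

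Across the genotypes, no member passed. Probe sets were tested when 3 or more of the 6 arrays read them above that array's median, which retained 54 of the 95 member probe sets, for 27 genes. None had a Benjamini-Hochberg adjusted p from limma under 0.05, as none did among all 22565 probe sets tested (0%); the smallest adjusted p was 0.511 both among members and among all. At unadjusted p under 0.05 there were 5 member probe sets (9.26%), against 9.4% of all probe sets. Knockout and wild-type arrays did not overlap for 7 (13%), against 16.2% of all; 3 of the 7 were higher in the knockout (8.96% of all were) and 4 lower (7.25% of all were). With 1 probe set for each gene, 4 of 27 genes had an unadjusted p under 0.05 (7.9% of all genes did) and 6 did not overlap (16.4% of all genes did not). The member shares were thus at or below those of the whole array when counted over probe sets (9.26% and 13%), and above them when counted over genes (14.8% and 22.2%). The 54 log2 differences split into 27 higher and 27 lower in the knockout, with a median size of 0.15 without regard to sign, against 0.13 for all probe sets. The count of 5 depended on single arrays: it was 3 without knockout 4, 8 without knockout 2, 10 without wild type 4 and, in an alternative chosen after seeing the data, 8 without both knockout 2 and wild type 4. The count over all probe sets, 2121 with every array, was 1205, 2392, 3490 and 3276 in the same fits. Fzd1, Axin1 and Gsk3b each had a counted probe set with any 1 of the 6 arrays left out.

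**Figure D1:**
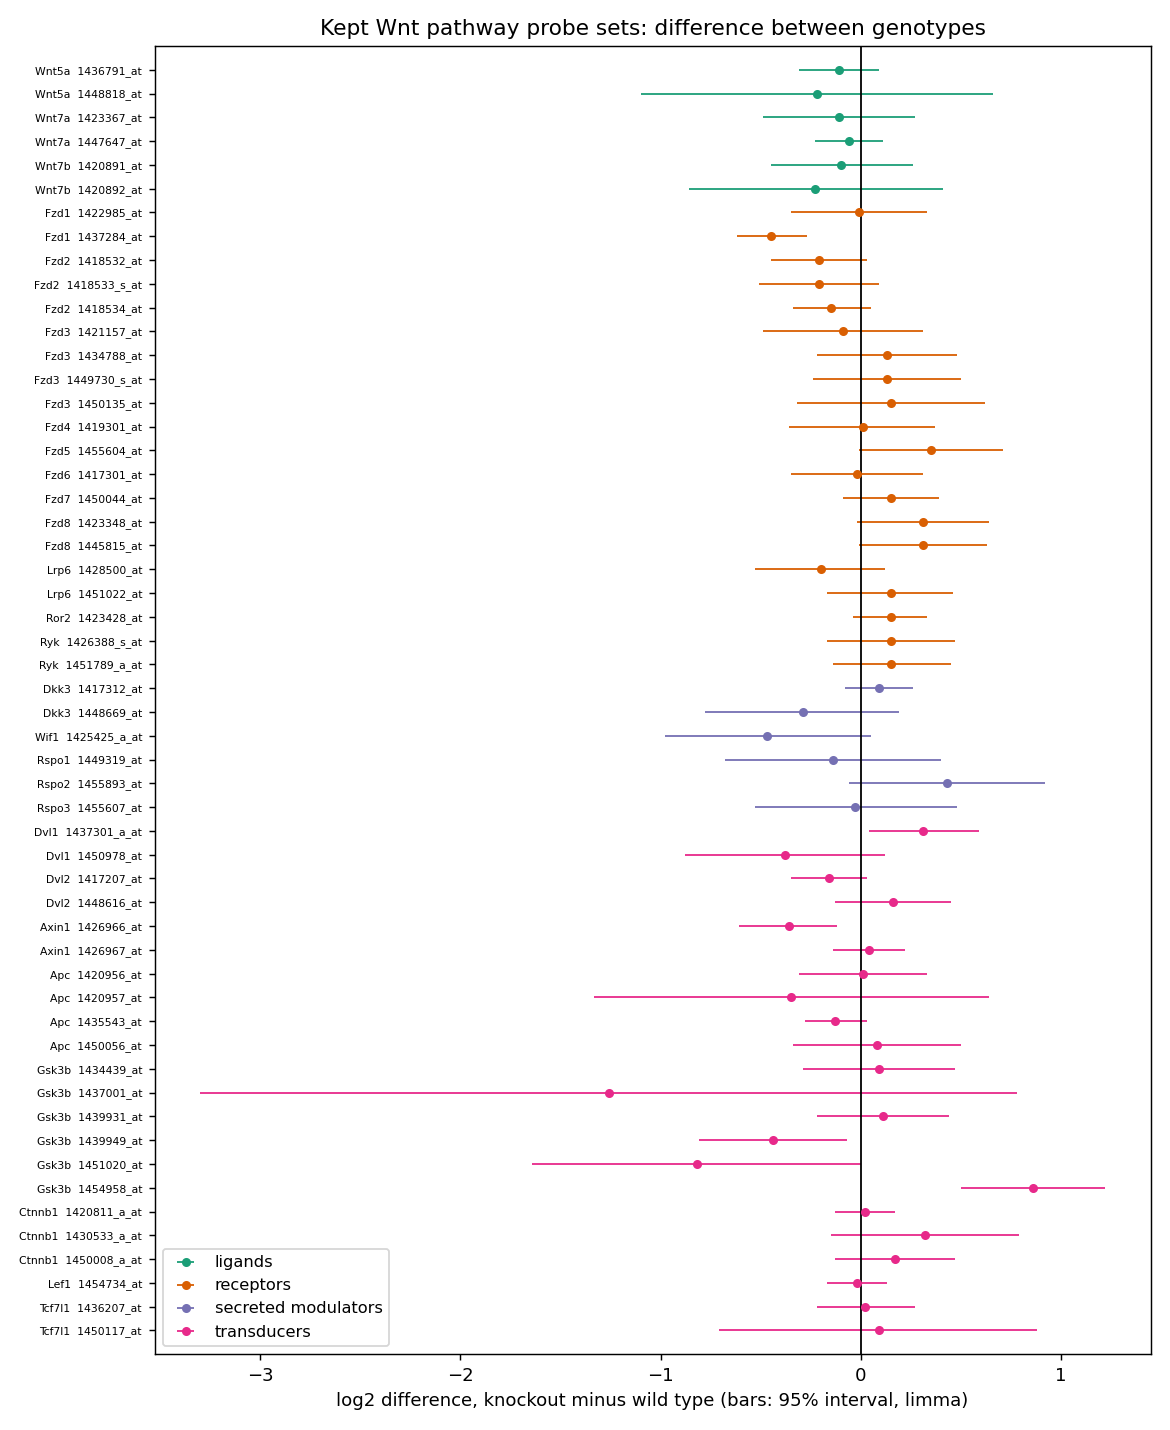
Log2 difference, knockout minus wild type (x axis), of the 54 Wnt pathway probe sets retained for testing, 1 per line with its gene; points are limma estimates and bars their 95% intervals, coloured by role. All 6 ligand points lie below 0 with intervals that cross it, and the 6 Gsk3b points run from -1.26 to 0.86.

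The upstream windows of 3 of these genes are shown because Fzd1, Dvl1 and Gsk3b each have a probe set with unadjusted p under 0.05 and an entry in the RefSeq promoter table, and because Olig2 belongs to the basic helix-loop-helix factors, which bind E-boxes. Each is the 250 bases before the annotated start in GRCm38.p6, 5′ to 3′ on the gene's strand, with capitals marking every E-box, CANNTG, which reads as the same pattern on both strands. Fzd1 is at chr5:4758217-4758466 on the minus strand, Dvl1 at chr4:155847152-155847401 on the plus strand and Gsk3b at chr16:38088751-38089000 on the plus strand.
Fzd1: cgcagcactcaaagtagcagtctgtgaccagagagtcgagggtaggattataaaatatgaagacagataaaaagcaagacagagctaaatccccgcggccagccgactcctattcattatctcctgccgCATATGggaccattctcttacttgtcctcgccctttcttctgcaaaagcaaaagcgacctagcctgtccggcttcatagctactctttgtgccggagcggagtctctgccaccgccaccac
Dvl1: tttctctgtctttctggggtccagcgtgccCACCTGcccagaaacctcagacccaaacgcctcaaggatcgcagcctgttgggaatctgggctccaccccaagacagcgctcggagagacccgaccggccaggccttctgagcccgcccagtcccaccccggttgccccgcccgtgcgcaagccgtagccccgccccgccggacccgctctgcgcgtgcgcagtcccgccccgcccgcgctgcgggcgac
Gsk3b: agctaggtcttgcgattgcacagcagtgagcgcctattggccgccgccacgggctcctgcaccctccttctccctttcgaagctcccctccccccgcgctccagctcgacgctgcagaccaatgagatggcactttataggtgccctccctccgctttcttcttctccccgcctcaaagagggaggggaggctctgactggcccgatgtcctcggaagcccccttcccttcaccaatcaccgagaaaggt

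The Fzd1 window held 1 E-box, CATATG, and the Dvl1 window 1, CACCTG, while these letters did not occur in the Gsk3b window. Such a match is common: 66.2% of 32851 windows of this length held at least 1. The core of the Tcf and Lef motif, CTTTGA on either strand, occurred once in the Fzd1 window and once in that of Gsk3b, and in 13.8% of all windows. Over the members, 31 genes matched the table with 39 windows, of which 23 held an E-box and 8 the Tcf core. A match is a description of letters and not evidence of binding.

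The 3 detected ligands had small negative differences, and the genotypes overlapped at each probe set. Wnt7a, a ligand of neural progenitors, read 6.17, 6.49 and 6.58 on knockout 2, 4 and 5 and 6.61, 6.29 and 6.67 on wild type 1, 4 and 5. Wnt7b, its closest relative and with it a signal for brain endothelium, read 6.25, 6.80 and 6.32 in the knockout and 6.94, 6.18 and 6.92 in the wild type at its brighter probe set. At these probe sets both were lowest in each genotype on the array with the most Ttr, knockout 2 and wild type 4, and the genotypes overlapped. The dimmer Wnt7b probe set read 5.88, 6.15 and 5.79 against 6.11, 5.82 and 6.20, lowest on knockout 5 and wild type 4. Wnt5a, mainly a ligand of Ror and Ryk, read 4.75, 4.74 and 4.82 in the knockout and 4.78, 5.00 and 4.86 in the wild type. Its second probe set stood apart on the same arrays, at 5.18 on knockout 2 and 5.58 on wild type 4, against 4.39 to 4.56 on the other 4; the part of the Ttr pattern in this was not tested.

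All 6 ligand probe sets gave a negative log2 difference, from -0.23 to -0.06, and none had an unadjusted p under 0.05. The gene medians were -0.11 for the 3 ligands and -0.002 for all genes; that of the ligands was -0.224 without wild type 4 and 0.008 with the replicate number as a block. The intervals were wide beside these differences: that of Wnt7b ran from -0.86 to 0.41 and that of Wnt7a from -0.49 to 0.27, so differences within these bounds were not resolved. Another Wnt7a probe set was at the floor, and the dimmer of the tested ones was tied within 0.005 on 4 of the 6 arrays, where no difference can be read.

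Floor-level ligands were Wnt1, Wnt2b, Wnt3, Wnt3a, Wnt4, Wnt5b, Wnt8b and Wnt11. Wnt2b, Wnt3a and Wnt8b are known from the cortical hem, the dorsal signalling centre of the telencephalon, and Wnt1 from the dorsal midline of more posterior brain. No probe set of Wnt1 or Wnt8b left 2.27 on any array, Wnt3a reached at most 2.42, and Wnt5b reached 3.10 on knockout 2 against 3.00 on the other 5. These readings stood beside floor-level roof plate and hem markers: Lmx1a, Msx1, Msx2, Bmp4, Bmp6 and Bmp7 reached at most 2.42 on any array, and 2 of 11 genes of that list, Ttr and Otx2, were retained. The other 8 Wnt ligands on the array (Wnt2, Wnt6, Wnt8a, Wnt9a, Wnt9b, Wnt10a, Wnt10b and Wnt16) reached at most 2.38. For ligand export, Wls, which carries Wnt proteins to the cell surface, read 6.57, 6.42 and 6.55 in the knockout and 6.69, 6.87 and 6.76 in the wild type. The genotypes did not overlap for Wls, and its 3 tested probe sets differed by -0.35 to -0.26 without passing. Porcn, which attaches the lipid, overlapped (-0.24).

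No Frizzled receptor passed the test, and their differences had both signs. At the brightest probe sets Fzd1 (-0.45) and Fzd2 (-0.15) were negative and Fzd5 (0.35) and Fzd8 (0.31) positive, and of these 4 only Fzd1 had genotypes that did not overlap. Fzd1 (chromosome 5, 4753839 to 4758216, GRCm38) read 7.54, 7.67 and 7.60 on knockout 2, 4 and 5 and 8.04, 8.00 and 8.12 on wild type 1, 4 and 5. All knockout arrays were below all wild-type arrays by more than the spread of either group. The means were 7.61 ± 0.06 and 8.05 ± 0.06 on the log2 scale (SD, n = 3 per genotype). The level was 1.36-fold lower, a log2 difference of -0.45 with a 95% interval of -0.62 to -0.27 (SE 0.07; adjusted p = 0.511 in limma). The second Fzd1 probe set did not show this: it read 4.71, 4.86 and 4.69 in the knockout and 4.48, 4.92 and 4.89 in the wild type (-0.01). The mean of both probe sets differed by -0.23.

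Fzd2, the closest relative of Fzd1 and Fzd7, read lower at all 3 of its probe sets, by 0.15 to 0.21 on the log2 scale. The brightest gave 7.75, 7.80 and 7.71 in the knockout and 7.92, 7.79 and 7.99 in the wild type, where wild type 4 lay among the knockout arrays. The difference at this probe set was -0.20 without wild type 4 and -0.10 without wild type 5. Fzd7 did not follow them, at 4.47, 4.54 and 4.29 against 4.18, 4.29 and 4.38 (0.15), close to the detection limit of 4.

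Fzd8 and Fzd5, a related pair known from the ventricular zone and the anterior forebrain and eye field, had positive differences that did not pass. Fzd8 gave 7.25, 7.47 and 7.01 on the knockout arrays and 7.00, 6.85 and 6.94 on the wild-type arrays at one probe set and these did not overlap, with knockout 5 and wild type 1 nearly equal. The other gave 7.90, 7.77 and 7.55 against 7.60, 7.26 and 7.43, and overlapped. Both differed by 0.31 (SE 0.13; adjusted p = 0.511 in limma), a 1.24-fold higher level, with intervals of -0.01 to 0.63 and -0.02 to 0.64. Fzd5 read 6.27, 6.56 and 6.63 in the knockout and 6.37, 5.98 and 6.07 in the wild type at its one tested probe set, a difference of 0.35 (SE 0.15, interval -0.01 to 0.71). Its other probe set was at the floor. Whether the 2 pairs of receptors differ from each other in their response was not tested.

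**Figure D2:**
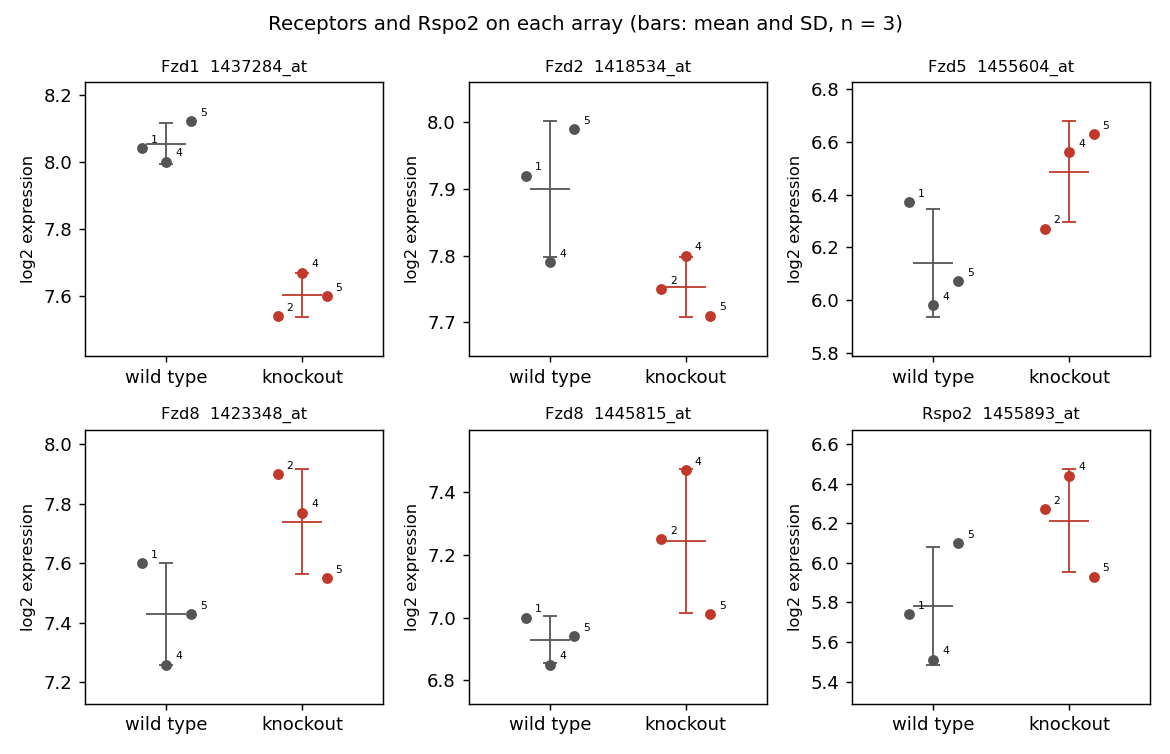
Log2 expression (y axis, scaled for each panel) of Fzd1, Fzd2, Fzd5, Fzd8 (both probe sets) and Rspo2 on each array, by genotype; points are arrays with their replicate number, horizontal bars the mean and whiskers the SD of 3 arrays. Fzd1 has its 3 knockout arrays between 7.54 and 7.67 and its wild-type arrays between 8.00 and 8.12, while the other panels show smaller gaps or overlap.

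Fzd3 and Ryk, receptors of axon guidance, overlapped between genotypes, and wild type 1 was low at their brightest probe sets. Fzd3, needed for the thalamocortical and other forebrain tracts, read 10.28, 10.50 and 10.54 in the knockout and 10.04, 10.42 and 10.47 in the wild type at its brightest probe set. Wild type 1 was also the lowest array at 2 of the 3 other tested Fzd3 probe sets (6.35 and 4.46), while knockout 5 was lowest at the remaining one (4.17). Without wild type 1 the difference of 0.13 at the brightest probe set was -0.0025. Ryk read 6.94, 7.01 and 6.92 against 6.53, 6.96 and 6.94, again lowest on wild type 1. Its second probe set read 6.81, 7.11 and 6.70 against 6.66, 6.69 and 6.80, where knockout 4 stood highest, and both differed by 0.15.

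The genotypes overlapped for each of the remaining receptors. Lrp6, the co-receptor for beta-catenin signalling, differed by -0.20 at its brighter probe set (7.32, 7.51 and 7.05 against 7.61, 7.44 and 7.45) and by 0.15 at the other, which was low on wild type 1 (5.97). Fzd6 differed by -0.02. Weakly detected Fzd4 read 3.94, 3.47 and 3.57 against 3.57, 3.82 and 3.57, tied on 3 arrays, and Ror2 read 3.48, 3.36 and 3.47 against 3.26, 3.24 and 3.38 (0.15, with SDs of 0.06 and 0.07). Lrp5, Fzd9, Fzd10 and Ror1 were at the floor, with Fzd9 highest among them at 3.15 on wild type 5. Of the 11 receptors tested, 7 were higher and 4 lower, with a median of 0.13, which was 0.01 without wild type 1.

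Of the secreted modulators 5 were tested, and the genotypes overlapped for each. Rspo2, an R-spondin that amplifies Wnt signals by sparing Frizzled from turnover, read 6.27, 6.44 and 5.93 in the knockout and 5.74, 5.51 and 6.10 in the wild type, a difference of 0.43 (SE 0.20, interval -0.06 to 0.92). Knockout 5 and wild type 5 crossed, so the groups overlapped. Rspo3 read 6.83, 6.97 and 6.31 against 6.51, 6.72 and 6.96 (-0.03), and weakly detected Rspo1 3.49, 4.17 and 3.79 against 3.79, 3.79 and 4.28 (-0.14).

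Among the inhibitors, the 2 probe sets of Dkk3, a divergent Dickkopf protein, disagreed (0.09 and -0.29), and at the second wild type 1 was high at 5.87. Wif1, which binds Wnt proteins directly, read 3.29, 2.70 and 3.29 in the knockout and 3.29, 3.75 and 3.63 in the wild type. It was tied on 3 arrays and below its array's median on knockout 4, so its difference of -0.47 (interval -0.98 to 0.05) rests on values near the floor. Dkk1, Dkk2 and Frzb were floor-level. Of the 5 modulators tested, 2 were higher and 3 lower, with a median of -0.03.

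Transducers were nearly all detected, and their probe sets often disagreed. For 17 members with at least 2 tested probe sets, 9 had all of them on the same side of 0 (52.9%, against 45.7% of 5104 genes), and the 8 that did not included the transducers Dvl1, Dvl2, Apc and Gsk3b. Axin1 is also among the 8, but only through a probe set tied on 4 arrays. The 52.9% covers members of every role. Of the transducers with at least 2 tested probe sets, only Ctnnb1 and Tcf7l1 had all of them on the same side. The 22 transducer probe sets included 4 with an unadjusted p under 0.05 (18.2%, against 9.4% of all probe sets) and 5 without overlap (22.7%, against 16.2%). At 1 probe set for each gene, 4 of 8 were higher and 4 lower, with a median of 0.001, and 5 of 8 did not overlap (62.5%, against 16.4% of all genes).

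Dishevelled genes read in opposite directions at their brightest probe sets. Dvl1 gave 9.08, 9.25 and 9.38 in the knockout and 8.78, 9.01 and 8.98 in the wild type, without overlap (0.31, SE 0.11, adjusted p = 0.511 in limma). Its second probe set gave 7.07, 7.03 and 7.23 against 7.91, 7.13 and 7.42 (-0.38, overlapping), so that the mean of both was -0.03. Dvl2 gave 6.09, 6.17 and 6.27 against 6.40, 6.28 and 6.33, without overlap but with knockout 5 next to wild type 4 (-0.16), and differed by 0.16 at a dimmer probe set. Dvl3 was at 2.27 on every array at its single probe set.

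In the destruction complex, Axin1, its scaffold (chromosome 17, 26131217 to 26195811, GRCm38), read 6.59, 6.55 and 6.54 on knockout 2, 4 and 5 and 7.04, 6.74 and 7.00 on wild type 1, 4 and 5. All knockout arrays were lower, 1.29-fold on average, with a log2 difference of -0.36 and an interval of -0.61 to -0.12 (SE 0.10; adjusted p = 0.511 in limma). The second Axin1 probe set was tied at 4.51 on 4 arrays and gave no reading of a difference. Apc, which presents beta-catenin to the complex, read 10.63, 10.62 and 10.61 against 10.77, 10.78 and 10.69 at its brightest probe set (-0.13, without overlap), while the other 3 ranged from -0.35 to 0.08 and overlapped.

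Gsk3b, the kinase of the complex, gave the largest and most contradictory differences of the set. Its brightest probe set read 11.06, 11.26 and 10.81 in the knockout and 10.01, 10.33 and 10.21 in the wild type, 0.86 higher with an interval of 0.50 to 1.22 (SE 0.14; 1.82-fold; adjusted p = 0.511 in limma). The next brightest read 10.08, 7.49 and 7.29 against 9.69, 10.22 and 8.73, a difference of -1.26 (SE 0.83) with overlap. The first separates the genotypes on every array; at the second, knockout 2 lay among the wild-type arrays.

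Another read 7.44, 6.75 and 6.45 in the knockout and 8.23, 7.53 and 7.35 in the wild type (-0.82), with knockout 2 again among the wild-type arrays. One more read 6.66, 6.36 and 6.31 against 6.64, 7.00 and 7.02 (-0.44), and the remaining 2 differed by 0.09 and 0.11. One gene thus read higher, lower or close to equal depending on the probe set, and the mean of the 6 differed by -0.24. The sources used here do not say which transcript or exon each probe set covers. Gsk3b lies on chromosome 16, as Olig2 does, 53.0 Mb away.

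**Figure D3:**
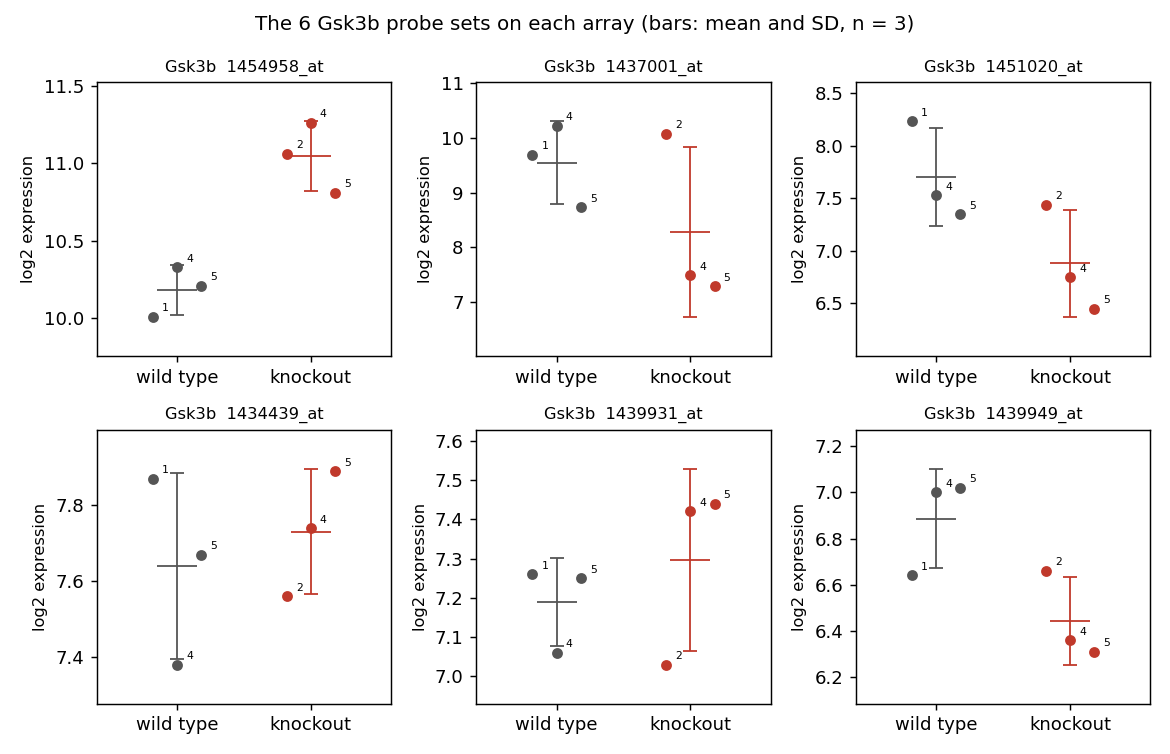
Log2 expression (y axis, scaled for each panel) at the 6 Gsk3b probe sets on each array, by genotype, with the brightest probe set first; points are arrays with their replicate number, horizontal bars the mean and whiskers the SD of 3 arrays. The brightest is between 10.81 and 11.26 on the knockout arrays and between 10.01 and 10.33 on the wild-type arrays, and the next is lower on knockout 4 and 5 (7.49 and 7.29) but not on knockout 2 (10.08).

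Among the members, beta-catenin and its nuclear partners Lef1 and Tcf7l1 did not separate the genotypes. Partners outside the member set, such as Tcf7l2, are described below. Ctnnb1 read 13.02 on all 3 knockout arrays and 12.97, 13.03 and 13.00 in the wild type at its brightest probe set. The other 2 Ctnnb1 probe sets were 0.32 and 0.17 higher with overlap and were lowest on wild type 1 (9.58 and 10.47). Lef1 lay between 4.83 and 4.89 on all arrays, tied on 4 of them. Tcf7l1, mostly a repressor in the absence of Wnt signals, differed by 0.09 and 0.02; its brighter probe set read 6.41, 7.33 and 6.97 against 6.94, 6.29 and 7.22, lowest on knockout 2 and wild type 4.

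**Figure D4:**
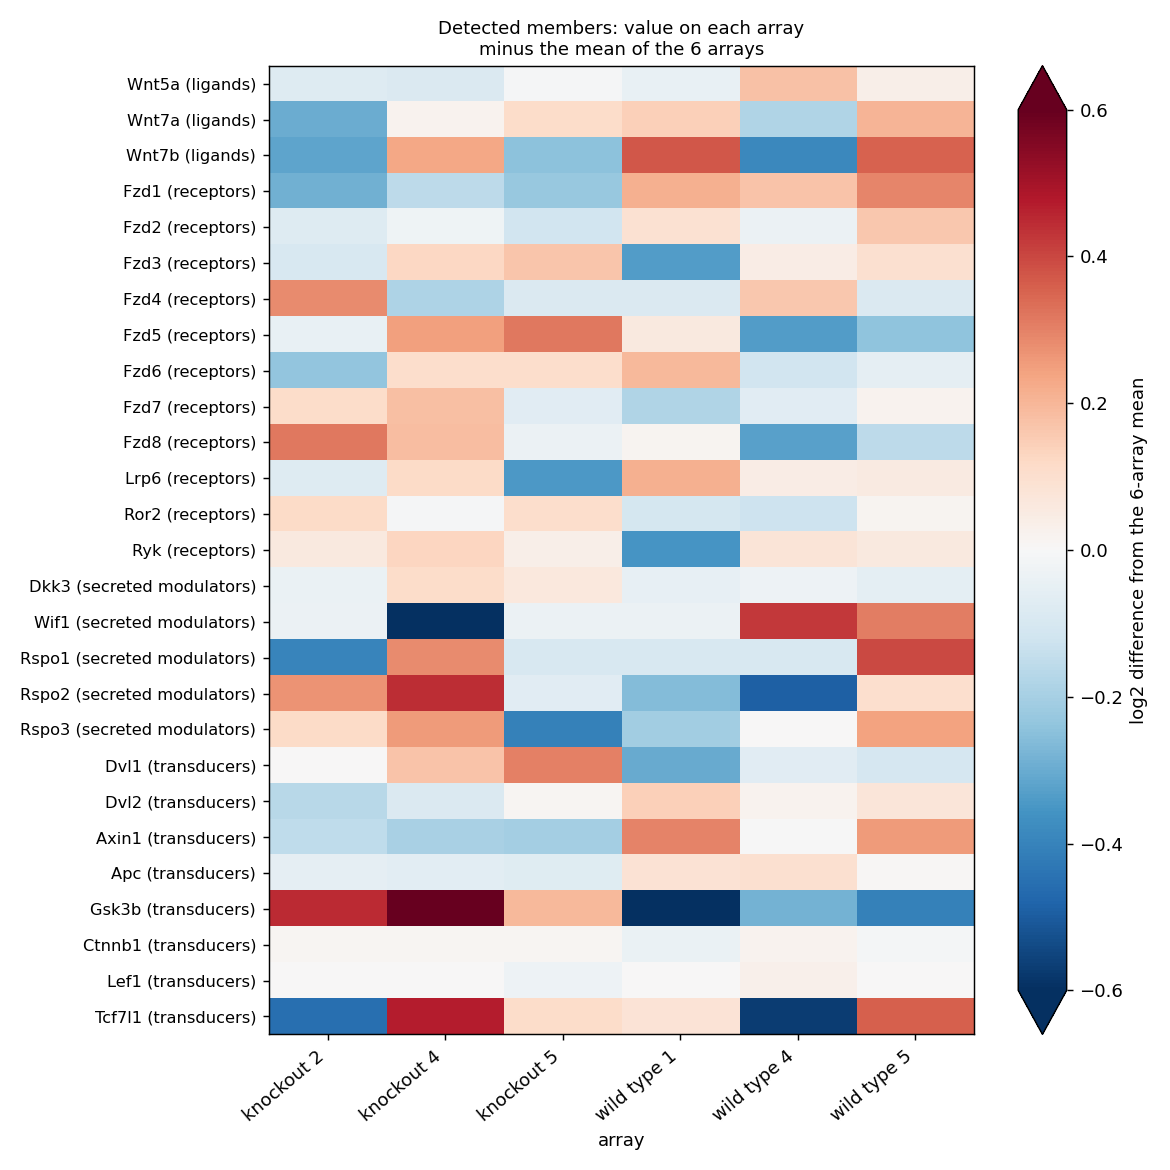
Value of each of the 27 detected members on each array minus its mean over the 6 arrays (colour, log2, clipped at 0.6 on both sides), 1 probe set per gene, arrays in columns. Fzd1 and Axin1 are below their mean on all knockout arrays and Gsk3b above it, whereas Wnt7b, Tcf7l1 and Rspo1 vary within both genotypes.

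The other genes of the pathway were read from lists of feedback, nuclear and polarity genes, none of which passed singly. Of 22 feedback genes and modulators 11 were tested, 5 higher and 6 lower, and 6 did not overlap (16.4% of all genes did not). Nkd1, a Dishevelled-binding inhibitor, read 5.22, 5.08 and 4.99 against 5.78, 5.70 and 5.69. Tnfrsf19, a Wnt target receptor, read 6.58, 6.36 and 6.48 against 7.14, 7.08 and 7.04, and the Rspo receptor Lgr4 read 8.00, 8.05 and 7.76 against 7.07, 7.12 and 7.34. Sfrp1, a secreted Frizzled-related inhibitor, read 8.08, 8.30 and 7.79 against 7.13, 7.79 and 6.53. The genotypes did not overlap for these 4 genes at these probe sets, although for Sfrp1 knockout 5 and wild type 4 were nearly equal. Over all tested probe sets the differences ran from -0.63 to -0.12 for Nkd1 (3 probe sets) and from -0.62 to -0.04 for Tnfrsf19 (3). For Sfrp1 they ran from 0.23 to 1.05 (5), and Lgr4 had 1 tested probe set. Apcdd1, a membrane-bound Wnt inhibitor, read 10.42, 10.33 and 10.42 against 10.55, 10.61 and 10.57, and its 5 tested probe sets differed by -0.74 to -0.18. Axin2, the common transcriptional readout of beta-catenin, read 5.42, 5.98 and 5.38 against 6.74, 5.93 and 5.80 (-0.56, with overlap).

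Of 23 nuclear partners and kinases 21 were tested, 9 higher and 12 lower, and 7 did not overlap (33.3%, against 16.4% of all genes). Of those 7, 2 were higher and 5 lower. The 4 genes named next, those of lowest unadjusted p in limma, were all lower at their brightest probe sets. Tcf7l2, the Tcf factor abundant in the thalamus, read 7.37, 7.70 and 7.96 against 8.62, 8.50 and 7.99, and all 4 of its probe sets were lower. The corepressor Tle3 differed by -0.34 at its brightest probe set (-0.34 to 0.25 over 4), the kinase Csnk1e by -0.47 with overlap, and the chromatin factor Chd8 by -0.31. Tcf7l2 also stands in the thalamus and habenula list, whose 9 tested genes had mean log2 levels of 6.14 to 6.50 on the knockout arrays and 6.78 to 7.01 on the wild-type arrays. Of these 9 genes, 1 was higher and 8 lower in the knockout, and 6 did not overlap (66.7%, against 16.4% of all genes). Gbx2, Rora, Foxp2, Barhl2 and Irx3 were among the 6, all lower. Irx3 was below 4 on every array and read 3.41 on knockout 4, knockout 5 and wild type 4, so its separation is a near tie. Barhl2 was also dim, at 3.83 to 4.51. Irx1 of this list reached at most 2.29 and was not tested. Lhx9 (-0.52), Lhx2 (0.07) and Pou4f1 (-0.02) overlapped. The part of this list in the Wnt gene readings was not tested. Of 19 planar cell polarity genes, 6 tested ones of which are members above, 15 were tested, 5 higher and 10 lower. Those without overlap numbered 5 (33.3%, against 16.4% of all genes), 1 higher and 4 lower. The higher one was the member Dvl1 (0.31), and the lower ones included the member Dvl2. Vangl2 read 8.32, 8.21 and 7.82 against 8.89, 8.40 and 8.63 (-0.52). Celsr3 differed by -0.33 and Prickle2 by -0.45. Vangl2, Celsr3 and Prickle2 did not overlap at these probe sets. The 3 tested Vangl2 probe sets ran from -0.52 to 0.16.

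Markers of other cells also varied between arrays. The meninges and mesenchyme list, with 4 of 12 genes retained, had mean log2 levels of 6.55, 4.80 and 4.96 in the knockout and 5.86, 5.11 and 5.39 in the wild type. These means mix opposite differences, all with overlap: Pdgfra was lower in the knockout (-1.04), and Prrx1 (0.40), Col3a1 (0.33) and Foxd1 (0.24) were higher. The 8 genes not retained ranged in their highest reading on any array from 2.64 (Twist1) to 6.04 (Col1a2). Endothelium and pericyte markers, 9 of 11 retained, ran from 5.28 to 5.46 in the knockout and from 5.21 to 5.34 in the wild type. Pallial markers, 8 of 9 retained, ran from 7.44 to 7.66 and from 7.39 to 7.44. Their part in the Wnt gene readings was not tested.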

How the data were processed

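Per the submitters' processing notes and the design text, the authors used GCOS, MAS5 and GCRMA; no source used here gives their versions. The deposited table holds GCRMA-normalized log2 values for 45101 probe sets, of which 64 controls were left out; each pool gave 6 ug of total RNA. The 22565 probe sets that exceeded the array median on 3 or more of 6 arrays entered limma's lmFit and eBayes (version 3.58.1, R 4.3.3; knockout minus wild type, no covariates), with Benjamini-Hochberg adjustment over all of them and a threshold of 0.05; the fit was tested on simulated data. The brightest retained probe set represents a gene. Members and lists were chosen with earlier results of these data known. Named with values were Olig2, Olig1, every member, and up to 4 genes of lowest unadjusted p of each other Wnt list; Sfrp1, Axin2, Fbxw11, Amer1 and the marker genes were added after their values were seen. Alternatives changed the filter, normalization, variance model, array weights, replicate block, probe set summary and arrays included. Promoters are RefSeq windows of GRCm38.p6.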

Additional observations from a re-analysis of the deposited data

How the results depend on the processing

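No probe set had an adjusted p under 0.05 in limma under any alternative run, and the smallest adjusted p over them was 0.137, without knockout 2. The number of all probe sets with an unadjusted p under 0.05 (2121) was 3491 with array weights, 3276 without knockout 2 and wild type 4 together (chosen after seeing the data), and 1121 to 3490 with 1 array left out. The member count of 5 was 11 with array weights, 8 with median centring, with no filter, with repeated quantile normalization and without knockout 2 and wild type 4 together, and 3 to 10 with 1 array left out. The receptor median of 0.131 was 0.059 with array weights, 0.006 with no filter and 0.01 to 0.189 with 1 array left out. The modulator median of -0.028 was -0.216 with array weights and -0.16 to 0.083 with 1 array left out. The ligand median of -0.112 was 0.008 with the replicate block and -0.224 to -0.095 with 1 array left out. The transducer median of 0.001 was -0.026 with probe sets averaged per gene and -0.075 to 0.005 with 1 array left out. The causes were not tested.

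Of 29 member differences 16 kept their sign under every alternative run and 13 did not. With probe sets averaged per gene, Dkk3 was -0.101, Dvl1 -0.0321 and Gsk3b -0.244. Ctnnb1 was -0.00288 with repeated quantile normalization. Array weights gave -0.0136 for Fzd4, 0.0728 for Fzd6 and -0.00815 for Tcf7l1, and median centring 0.000761 for Fzd6 and 0.000429 for Lef1. Without knockout 2 and wild type 4 together, Fzd4 was -0.0514 and Fzd6 0.0358. With 1 array left out, Fzd3 ranged from -0.00251 to 0.211, Fzd4 from -0.134 to 0.1, Fzd6 from -0.0784 to 0.0953, Rspo1 from -0.314 to 0.0252, Rspo3 from -0.16 to 0.168, Tcf7l1 from -0.179 to 0.331 and Wnt7a from -0.224 to 0.0144.

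The labels do not say that replicate numbers pair the arrays, and the deviations of same-numbered arrays correlated at -0.29 (number 4) and 0.32 (number 5). With the replicate number as a block, 7 member probe sets of 4 genes (Dvl1, Fzd1, Fzd5 and Gsk3b) had an unadjusted p under 0.05, and Fzd4 was -0.176, Fzd6 0.186, Wnt7a 0.0571 and Wnt7b 0.00787. Near the floor of 2.27 and at tied values, signal over background limits what a difference can show: 16.7% of the member probe sets tested were tied within 0.005 on at least 3 arrays, against 8.78% of all.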

Other observations

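Disagreement between probe sets of 1 gene was not limited to Gsk3b. Fbxw11, a ubiquitin ligase subunit that recognises phosphorylated beta-catenin, had 5 tested probe sets with log2 differences from -0.95 to 0.89. The 2 tested probe sets of Amer1, a membrane-bound partner of Apc, agreed in sign (-0.58 and -0.10), but its arrays varied. The brighter read 6.13, 4.90 and 5.16 on knockout 2, 4 and 5 and 5.82, 6.32 and 5.79 on wild type 1, 4 and 5, highest in each genotype on knockout 2 and wild type 4. Pdgfrb, a pericyte receptor, read 7.33, 7.19 and 7.30 in the knockout and 6.92, 6.73 and 6.93 in the wild type, without overlap, while its second probe set differed by -0.15. These genes were chosen after their values were seen.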
